A study of Mus musculus with 8 samples.

Results

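Pleiotrophin (Ptn), midkine (Mdk), the receptor phosphatase Ptprz1 and the syndecans Sdc1 to Sdc4 are 7 of the 23284 gene symbols in a count table of mouse pancreas cells, and all 7 were taken by symbol. The family was chosen by the log2 fold change of Ptn between Dclk1+ and Dclk1- libraries, which was already known to be among the largest increases. The differences of the 7 genes in that comparison are therefore given as a description, and nothing is supported with them. Libraries 1 to 4 hold Dclk1+ cells, and libraries 5 to 8 hold Dclk1- cells. Both groups are pancreas cells of CBA x C57BL/6J mice that carry Dclk1-CreERT, an inducible Cre recombinase driven from Dclk1, and a tdtomato reporter, a red fluorescent protein. The labels do not give the age of the mice, the induction of Cre, the sorting gate or the number of animals, so each p-value reflects variation among these libraries only, which may be technical.

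Pleiotrophin and midkine are secreted heparin-binding growth factors that form a small family of their own. Both bind the sulfated sugar chains of proteoglycans, and pleiotrophin binding to the chondroitin sulfate of Ptprz1 is known to lower the activity of that phosphatase. Syndecans are transmembrane proteoglycans with heparan sulfate chains, which hold such growth factors at the cell surface. Syndecan-1 is best known from epithelia and plasma cells, syndecan-2 from mesenchymal cells, syndecan-3 from the nervous system and syndecan-4 from the focal adhesions of many cell types.

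Total counts were 7990777 to 10282911 in Dclk1+ and 6353841 to 7242084 in Dclk1- libraries. Levels are given in CPM, read counts over library sizes that were scaled by TMM and set to a common total, and 1 count was worth 0.102 to 0.111 CPM in the Dclk1+ and 0.121 to 0.193 CPM in the Dclk1- libraries. Dclk1 itself was at 17.9 to 221 CPM in the Dclk1+ and 2.67 to 15.0 CPM in the Dclk1- libraries. Dclk1+ library 4, at 17.9 CPM, stood only just above Dclk1- libraries 6 and 7, at 15.0 and 14.9 CPM. The log2 fold change of Dclk1 was 3.40 ± 0.82 (SE) and did not pass the threshold of 0.05 (by edgeR, adjusted p = 0.0503). Ribosomal RNA (Rn45s) made up 8.9% to 18.3% of Dclk1+ and 9.34% to 34.2% of Dclk1- counts. Acinar enzyme and factor genes, the markers of the main pancreas cell type, summed to 12100 to 52300 CPM in the Dclk1+ and 3040 to 57000 CPM in the Dclk1- libraries. Of 11 tuft cell genes, Dclk1 among them, 4 could be tested and 3 had a positive log2 fold change, with Ptgs1 called higher. The other, Plcb2, was lower without overlap, with a log2 fold change of -2.32 ± 0.98 (by edgeR, adjusted p = 0.138). Of those too low to test, Pou2f3, a defining factor of tuft cells, had 49 reads in the Dclk1+ and 9 in the Dclk1- libraries. Of the latter, 8 were in Dclk1- library 8, so that the groups overlapped. Avil had 53 reads in the Dclk1+ and 19 in the Dclk1- libraries, Trpm5 12 and 11, Gfi1b 6 and 29, and Il25 1 and 0. Gnat3 and Chat were at 0 counts in all 8 libraries. In such bulk samples fewer cells of a type and less RNA per cell cannot be told apart.

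Of the secreted ligands, Ptn was the one with separate groups. Its level was 38.7, 27.2, 45.8 and 5.78 CPM in Dclk1+ libraries 1 to 4, against 1.18, 1.33, 0.386 and 0.668 CPM in Dclk1- libraries 5 to 8. The groups did not overlap, and Dclk1+ library 4, the lowest of its group, was still several times the highest Dclk1- value. The Dclk1- values rested on 25 reads in all 4 libraries together, against 1084 reads in the Dclk1+ libraries. Over 4 libraries each, the mean ± SD came to 29.4 ± 17.5 CPM for Dclk1+ and 0.891 ± 0.440 CPM for Dclk1-, for a log2 fold change of 4.99 ± 0.73 (SE) with a 95% interval of 3.34 to 6.64. This was the 26th largest log2 fold change of the 13274 genes tested. It stayed between 4.83 and 5.48 when any single library was left out.

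The promoter of Ptn is shown beside that of Sdc4, because these genes had the widest and the narrowest log2 fold change among the members tested. The 250 bases upstream of each annotated start are printed from RefSeq in the GRCm38.p6 build, 5′ to 3′ on the strand of the gene, with CpG dinucleotides in capitals. The Ptn window is chr6:36810180-36810429 and the Sdc4 window is chr2:164443189-164443438, both on the minus strand.
Ptn: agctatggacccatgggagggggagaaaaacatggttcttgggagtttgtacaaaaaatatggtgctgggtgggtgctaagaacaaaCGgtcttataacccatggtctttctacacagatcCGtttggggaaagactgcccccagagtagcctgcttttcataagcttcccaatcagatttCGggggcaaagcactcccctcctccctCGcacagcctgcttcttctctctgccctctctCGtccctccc
Sdc4: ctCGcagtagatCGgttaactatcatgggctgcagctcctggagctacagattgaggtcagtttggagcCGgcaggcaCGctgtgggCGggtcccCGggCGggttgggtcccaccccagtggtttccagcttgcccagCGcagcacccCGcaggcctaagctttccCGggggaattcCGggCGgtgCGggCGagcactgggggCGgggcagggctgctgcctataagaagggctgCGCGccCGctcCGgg

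The Ptn window held 5 CpG dinucleotides and 52% G and C, and the Sdc4 window held 19 CpG and 68% G and C. Over 32851 mouse promoter windows of the same length the median was 6 CpG, and 44.4% of them held fewer CpG than Ptn and 80.3% fewer than Sdc4. The GC box GGGCGG, searched on both strands, was found 4 times in the Sdc4 window and 0 times in the Ptn window, and 32.7% of all windows held at least 1. Each GC box contains a CpG and so overlaps the capitals. The CCAAT box, letters CCAAT on either strand, began 81 bases upstream of the Ptn start and was found in 33.8% of all windows. The letters TATAAA were found on neither strand of these windows or of those of Ptprz1, Sdc1 and Sdc3, and 12.4% of all windows held them. RefSeq windows were matched for these 5 of the 7 genes, and not for Mdk and Sdc2. The Sdc3 window was the richest in CpG, with 32.

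Midkine was low and uneven. Mdk was at 0, 3.98, 13.8 and 5.33 CPM in Dclk1+ libraries 1 to 4, against 0.735, 0.849, 2.12 and 0 CPM in Dclk1- libraries 5 to 8. The groups overlapped, because Dclk1+ library 1 and Dclk1- library 8 had no Mdk read. A count of 0 allows up to 3 counts, which is 0.333 CPM in Dclk1+ library 1 and 0.501 CPM in Dclk1- library 8. The other Dclk1+ libraries all lay above the highest Dclk1- library. Over 4 libraries each, the mean ± SD came to 5.77 ± 5.80 CPM for Dclk1+ and 0.927 ± 0.883 CPM for Dclk1-, with a log2 fold change of 2.64 ± 1.38 (SE, 95% interval -0.47 to 5.74). Without Dclk1+ library 3, which had the most Mdk, the log2 fold change was 1.81.

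The balance of the 2 ligands differed from library to library. Scaled per kilobase of annotated exon, Ptn was at 11.3, 7.94, 13.4 and 1.68 CPM per kb in Dclk1+ libraries 1 to 4, and Mdk at 0, 3.01, 10.4 and 4.03 CPM per kb in the same libraries. Ptn was thus above Mdk in Dclk1+ libraries 1, 2 and 3 and below it in Dclk1+ library 4. In Dclk1- libraries 5 to 8, Ptn was at 0.342, 0.389, 0.113 and 0.195 CPM per kb and Mdk at 0.555, 0.641, 1.6 and 0 CPM per kb. There Mdk was the higher of the 2 in libraries 5, 6 and 7, at values that rest on 5 to 11 Mdk reads and 2 to 11 Ptn reads a library. Dclk1+ library 1 had 349 reads of Ptn and none of Mdk. That library also had no read of 9 of the 10 endocrine cell markers (Ins1, Ins2, Gcg, Sst, Ppy, Chga, Iapp, Pcsk1 and Pcsk2), and their part in the Mdk value was not tested.

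The receptor phosphatase was close to the limit of detection. Ptprz1, which carries chondroitin sulfate and is known from glia and neural progenitors, had 0, 6, 10 and 2 reads in Dclk1+ libraries 1 to 4, against 3, 1, 0 and 0 reads in Dclk1- libraries 5 to 8. This is 0 to 1.10 CPM in the Dclk1+ and 0 to 0.441 CPM in the Dclk1- libraries, and the groups overlapped. The exact Poisson interval of the highest library, Dclk1+ library 3, ran from 0.528 to 2.03 CPM, which covers counting error only. In the 3 libraries with no read, a count of 0 allows up to 0.333 CPM in Dclk1+ library 1, and 0.579 and 0.501 CPM in Dclk1- libraries 7 and 8. Ptprz1 was the member that did not pass the filter on low counts, and a difference between groups was not detectable at this depth. Of 10 Schwann cell and glial markers 5 could be tested, 2 of them with a positive log2 fold change and none called. Their summed level was 27.4 to 105 CPM in the Dclk1+ and 91.3 to 151 CPM in the Dclk1- libraries. Most of that was Mbp in every library but Dclk1+ library 1, where Mbp was 12.3 of 28.1 CPM. Without Mbp, a sum looked at after the values were seen, the level was 11 to 39 CPM in the Dclk1+ and 5.34 to 11.2 CPM in the Dclk1- libraries. Dclk1+ library 3, with the most Ptprz1, was also highest for Sox10, a defining factor of Schwann cells, with 11 reads where the other 7 libraries had 0, for Gfap with 7 reads, and for the receptor gene Erbb3 at 26.1 CPM. The part of such cells in the Ptprz1 values was not tested.

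**Figure D1:**
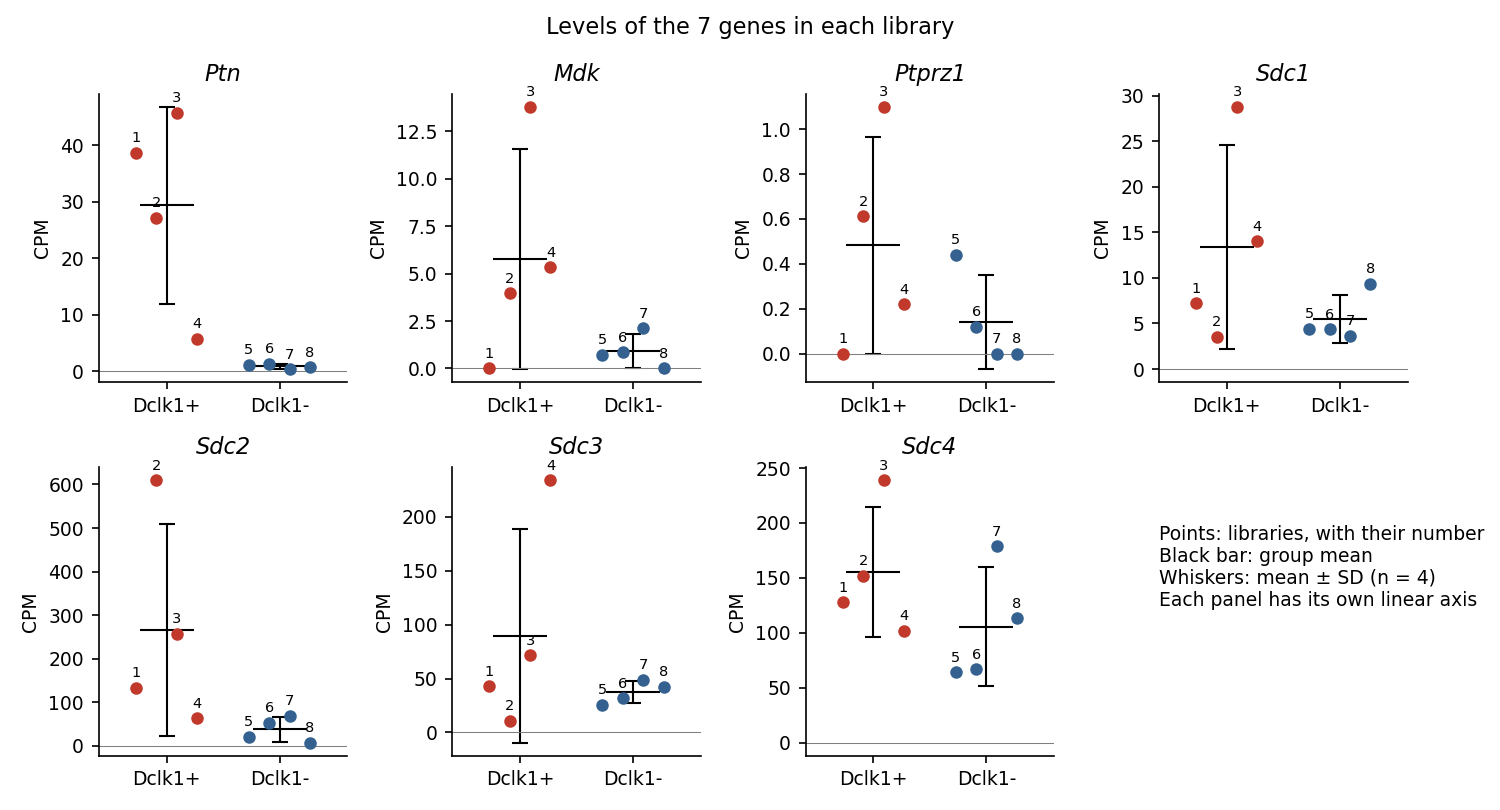
Level of each of the 7 genes in CPM on a linear axis of its own, with 1 point per library marked by its number, Dclk1+ in red and Dclk1- in blue, the group mean as a black bar and whiskers of 1 SD (n = 4 each). For Ptn the 4 Dclk1+ points lie at 5.78 to 45.8 CPM, above the 4 Dclk1- points at 0.386 to 1.33 CPM, and in the other 6 panels the groups overlap.

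Among the syndecans, Sdc2 had the widest difference. Sdc2 was at 133, 610, 257 and 63 CPM in Dclk1+ libraries 1 to 4, against 21, 52.9, 69 and 7.35 CPM in Dclk1- libraries 5 to 8. The groups overlapped narrowly, since Dclk1+ library 4 lay below Dclk1- library 7 and above the other 3. Over 4 libraries each, the mean ± SD came to 266 ± 243 CPM for Dclk1+ and 37.5 ± 28.3 CPM for Dclk1-, for a log2 fold change of 2.82 ± 0.84 (SE) with a 95% interval of 0.94 to 4.71. Without Dclk1+ library 2, the highest, the log2 fold change was 2.0.

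The order of the libraries by Sdc2 was nearly that of fibroblast and stellate cell markers. Of 10 such markers (among them Col1a1, Dcn and Pdgfra) all 10 had a positive log2 fold change, with a median of 2.21, and none was called or at 0 in any library. Their summed level was 11900, 44800, 19200 and 7020 CPM in Dclk1+ libraries 1 to 4, against 1330, 3670, 9670 and 1700 CPM in Dclk1- libraries 5 to 8. Within the Dclk1+ libraries Sdc2 and the marker sum had the same order, and within the Dclk1- libraries the lowest pair, 5 and 8, changed places. Set against 1000 CPM of these markers, a kind of ratio chosen after the values were seen, Sdc2 was at 11.2, 13.6, 13.4 and 8.97 CPM in Dclk1+ libraries, against 15.8, 14.4, 7.13 and 4.32 CPM in Dclk1- libraries. On that scale the Dclk1+ values lay inside the range of the Dclk1- values, while without it the means differed 7.07-fold. The same ratio for Ptn ran from 0.608 to 3.25 CPM in Dclk1+ and from 0.0399 to 0.884 CPM in Dclk1- libraries, where Dclk1- library 5 stood above Dclk1+ libraries 2 and 4. Per 1000 CPM of duct markers, Ptn was at 6.85 to 45.7 CPM in Dclk1+ and 6.13 to 12.2 CPM in Dclk1- libraries, so that the groups overlapped there too. In Dclk1+ libraries 3 and 4, the lowest of their group on this scale, most of the duct sum was the single marker Spp1. It was at 3260 of 4650 and 550 of 843 CPM there, and at 9.66 to 45.5 CPM in the Dclk1- libraries. A ratio without Spp1 was not computed. The part of these cell types in the Sdc2 and Ptn values was not tested.

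Sdc3 was high in a single library. It was at 43, 10.9, 71.6 and 234 CPM in Dclk1+ libraries 1 to 4, against 25.7, 32, 48.9 and 42.6 CPM in Dclk1- libraries 5 to 8. The Dclk1- libraries were close together and inside the range of the Dclk1+ libraries. Over 4 libraries each, the mean ± SD came to 90.0 ± 99.4 CPM for Dclk1+ and 37.3 ± 10.4 CPM for Dclk1-, a log2 fold change of 1.27 ± 0.75 (SE, 95% interval -0.40 to 2.95), which was 0.30 without Dclk1+ library 4. In GENCODE M21 an antisense gene, Gm26716, shares 415 exon bases with Sdc3, so reads of the pair cannot be told apart where strand was not used in counting. The other 6 members share no exon base with another gene in that annotation.

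Macrophage markers were also highest in Dclk1+ library 4. The 10 macrophage markers, which include Csf1r, C1qa and Adgre1, all had a positive log2 fold change, with a median of 1.93 and none called or at 0 in any library. Their sum was 298, 63.1, 1060 and 7770 CPM in Dclk1+ libraries 1 to 4, the order in which Sdc3 stood in those libraries, against 734, 1200, 754 and 428 CPM in Dclk1- libraries 5 to 8. In the Dclk1- libraries the orders differed, since library 7 had the most Sdc3 and library 6 the most of these markers. Per 1000 CPM of these markers, Sdc3 was at 30.2 to 173 CPM in Dclk1+ and 26.7 to 99.5 CPM in Dclk1- libraries, with Dclk1+ library 4 the lowest of its group. The part of macrophages in the Sdc3 values was not tested.

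Sdc1 had the lowest mean per kb of the syndecans in both groups. It was at 7.21, 3.57, 28.8 and 14 CPM in Dclk1+ libraries 1 to 4, against 4.41, 4.37, 3.67 and 9.35 CPM in Dclk1- libraries 5 to 8. The groups overlapped, and Dclk1+ library 2 had the lowest value of all 8. Its log2 fold change came to 1.29 ± 0.67 (SE) with a 95% interval of -0.20 to 2.79, and 0.71 without Dclk1+ library 3. That library also had the most duct markers, with a summed level of 1180, 596, 4650 and 843 CPM in Dclk1+ libraries 1 to 4, against 130, 135, 63 and 54.9 CPM in Dclk1- libraries 5 to 8. Of 9 duct markers tested all 9 had a positive log2 fold change and 4 were called higher, with Onecut1 at 0 in Dclk1- libraries 7 and 8 and Cftr at 0 in library 7. Over all genes tested 47.1% had a positive log2 fold change and 2.47% were called higher. Per 1000 CPM of duct markers, Sdc1 was at 5.99 to 16.6 CPM in Dclk1+ and 32.3 to 170 CPM in Dclk1- libraries, so that on this scale the Dclk1+ libraries were the lower ones. This scale, too, rests in part on Spp1, at 73.5 to 3260 CPM in Dclk1+ and 9.66 to 45.5 CPM in Dclk1- libraries. Plasma cell markers summed to 225 to 1510 CPM in the Dclk1+ and 1490 to 1740 CPM in the Dclk1- libraries, and 2 of 8 tested had a positive log2 fold change. The part of either cell type in the Sdc1 values was not tested.

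Sdc4 differed least between the groups. It was at 128, 152, 239 and 102 CPM in Dclk1+ libraries 1 to 4, against 63.8, 66.7, 179 and 113 CPM in Dclk1- libraries 5 to 8. Dclk1- libraries 7 and 8 lay inside the Dclk1+ range, and Dclk1- libraries 5 and 6 below it. Its log2 fold change came to 0.56 ± 0.42 (SE) with a 95% interval of -0.39 to 1.51. It was 1.01 without Dclk1- library 7 and 0.36 without Dclk1+ library 3 or Dclk1- library 5.

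**Figure D2:**
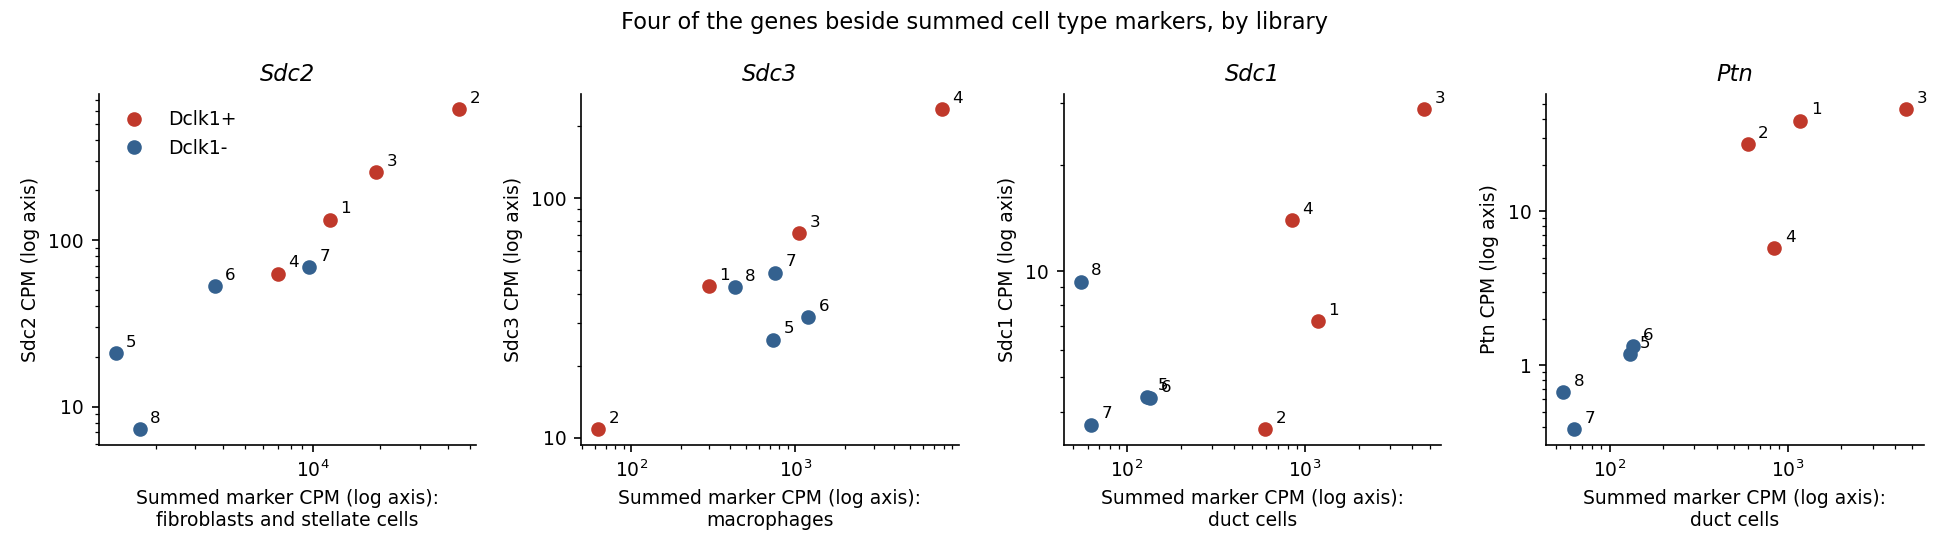
Sdc2, Sdc3, Sdc1 and Ptn in CPM against the summed CPM of a marker list (fibroblasts and stellate cells, macrophages, and duct cells for the last 2 panels), 1 point per library marked by its number, both axes on a log scale, Dclk1+ in red and Dclk1- in blue. Sdc2 lies along a single band from 7.35 to 610 CPM in which the groups overlap, and Sdc3 reaches 234 CPM in Dclk1+ library 4, where macrophage markers sum to 7770 CPM.

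The mix of syndecans differed more between Dclk1+ libraries than between Dclk1- libraries. Per kilobase of exon, Sdc4 made up 51.8%, 26%, 50.3% and 37.5% of the 4 syndecans in Dclk1+ libraries 1 to 4, against 67.4%, 54.3%, 70.5% and 77.1% in Dclk1- libraries 5 to 8. Every Dclk1- library thus had a larger Sdc4 share than every Dclk1+ library, and Sdc4 led in all 4 Dclk1- libraries. In the Dclk1+ libraries Sdc4 led in libraries 1 and 3, Sdc2 led in library 2 with 72.6% and Sdc3 led in library 4 with 42.4%. On read counts not divided by length, Sdc2 led in Dclk1+ libraries 1 and 3 as well, with 42.6% and 43.0% against 41.2% and 40.1% for Sdc4, so the leader there depends on the approximate exon lengths. Sdc2 made up 40.9% ± 23.4 in Dclk1+ and 17.0% ± 10.9 in Dclk1- libraries, and Sdc3 14.8% ± 18.7 and 12.6% ± 2.13 (SD, n = 4 each). Sdc1 was the smallest share in every library but Dclk1- library 8, where its 4.98% stood above the 3.50% of Sdc2.

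The syndecans together summed to 101, 238, 194 and 111 CPM per kb in Dclk1+ libraries 1 to 4, against 38.5, 50, 103 and 59.5 CPM per kb in Dclk1- libraries 5 to 8. Only Dclk1- library 7 reached the Dclk1+ range, just above Dclk1+ library 1. In order of the mean level in Dclk1+ libraries the members stood at 75.3 ± 68.9 CPM per kb for Sdc2, 63.3 ± 24.2 for Sdc4, 18.1 ± 20.0 for Sdc3, 8.56 ± 5.10 for Ptn, 4.36 ± 4.38 for Mdk, 4.24 ± 3.52 for Sdc1 and 0.0484 ± 0.0483 for Ptprz1. The ranges over the 4 libraries overlapped between every pair of neighbours in this order except Sdc1 and Ptprz1. In Dclk1- libraries Sdc4 stood first at 43.0 ± 22.0 CPM per kb, followed by Sdc2 at 10.6 ± 8.03, Sdc3 at 7.5 ± 2.09, Sdc1 at 1.73 ± 0.831, Mdk at 0.700 ± 0.667, Ptn at 0.260 ± 0.128 and Ptprz1 at 0.0141 ± 0.0208 (SD, n = 4 each). There the ranges of Sdc4 and Sdc2, of Sdc3 and Sdc1, and of Ptn and Ptprz1 did not overlap, and the other neighbours overlapped.

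**Figure D3:**
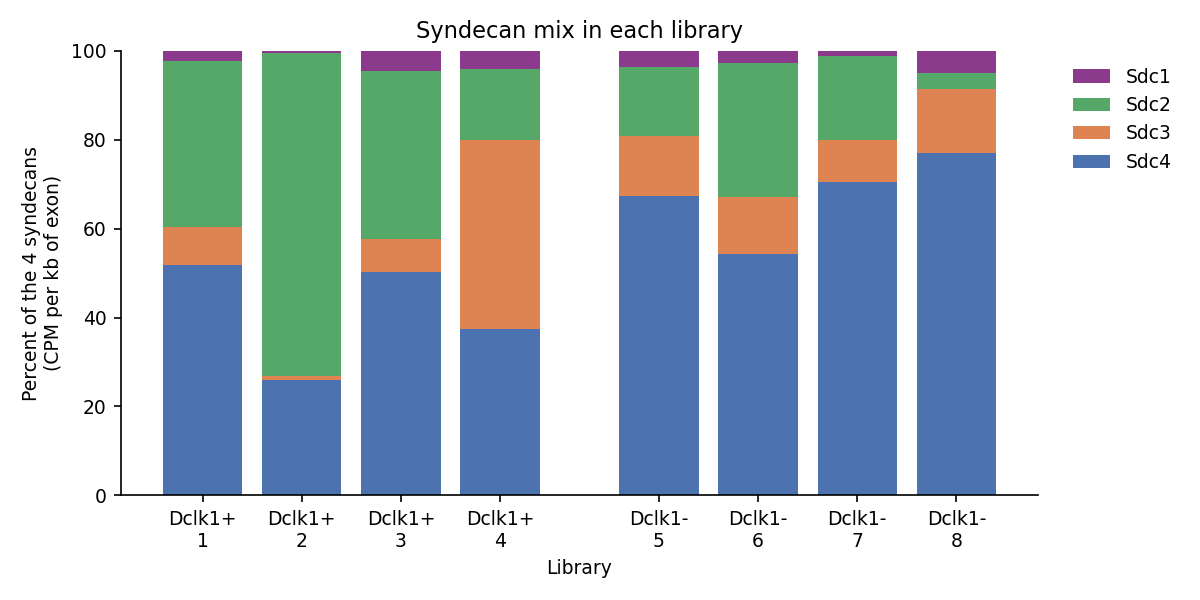
Share of each syndecan in the summed CPM per kb of exon of the 4 syndecans, in percent, 1 bar per library. The Sdc4 share runs from 26% to 51.8% in Dclk1+ libraries and from 54.3% to 77.1% in Dclk1- libraries, with a large Sdc2 share in Dclk1+ library 2 and a large Sdc3 share in Dclk1+ library 4.

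In the edgeR quasi-likelihood fit over all genes, 1 of the 6 members tested (Ptn) was past the adjusted p threshold of 0.05, where 3.49% of all 13274 genes were. Since the family was chosen with this contrast known, nothing is read from that count. It was 0 when any single library other than Dclk1+ library 4 was left out, as was the count over all genes in those fits. Without Dclk1+ library 4 it was 2 (Ptn and Sdc2), where 2481 of 13499 genes were called. It was also 2 (Ptn and Sdc2) with DESeq2, where 3422 of 13274 genes were called. With limma-voom no member passed, Ptn having an adjusted p of 0.0747, where 882 of 13274 genes were called. Of the 6 members tested 1 had no overlap between the groups, against 21.6% of all tested genes.

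The members did not move as a block across libraries. Over the 8 libraries the Pearson correlation of log2 CPM was 0.79 between Ptn and Sdc2, 0.68 between Sdc1 and Sdc3 and 0.60 between Mdk and Sdc2, while that of Sdc3 was -0.01 with Ptn and -0.21 with Sdc2. These values are descriptions, since the points share the libraries, their depth and the difference between groups. Among 9016 genes of at least 10 CPM on average, those most like Ptn over the 8 libraries were Cc2d2a, a gene of the ciliary transition zone (0.989), the RNA-binding protein gene Rbpms (0.988), the vascular growth factor gene Vegfa (0.987), Rbbp9 (0.985) and Fam198a (0.984). Vegfa was at 101, 119, 164 and 30.2 CPM in Dclk1+ libraries 1 to 4, while the 4 Dclk1- libraries had 11.2 to 18.7 CPM. As with Ptn, its lowest Dclk1+ value was in library 4. Those most like Sdc2 were Tmeff2 (0.996), Pi15 (0.995) and Asap3 (0.994), and Pi15, which encodes a secreted peptidase inhibitor, was at 124, 545, 168 and 50.3 CPM in Dclk1+ libraries, against 11 to 56.8 CPM in 3 Dclk1- libraries and 4.17 CPM in Dclk1- library 8. The nearest genes were Galm, Siae and Calm2 for Mdk (0.969 to 0.934), Tmem70, Atp1b1 and Aldoc for Sdc1 (0.941 to 0.908), Gsr, Efhd2 and Stom for Sdc3 (0.954 to 0.938) and Nat6, Bsg and Pex19 for Sdc4 (0.955 to 0.941).

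Genes that act with these members were looked at in 6 lists, which hold 109 genes in the table, of which 89 could be tested. Of these, 5 were called higher in Dclk1+ cells, 0 were called lower and 84 did not pass, where 2.47% of all genes tested were called higher and 1.02% lower. The median log2 fold change of the 89 genes was 1.13, with 76.4% above 0, while over all genes tested the median was -0.08 and 47.1% were above 0. Of the 89 genes 26 were higher without overlap and 5 lower, against 10.7% and 10.9% of all genes tested. The lists, like the members, were chosen with earlier results of these data known, so these counts and medians are a description only. All 5 calls lay just under the threshold, as every call did, since the smallest adjusted p of any gene in this edgeR fit was 0.0466. Each was lost, along with every other call, when any single library other than Dclk1+ library 4 was left out, with adjusted p up to 0.114. Without Dclk1+ library 4 the adjusted p of the 5 genes ran from 0.00997 to 0.0155. With limma-voom Gpc4, Synpo and Il34 did not pass (adjusted p = 0.061, 0.0504 and 0.0904), while Itgb1 and Mmp14 did. Markers of fibroblasts and stellate cells, of pericytes and smooth muscle, and of endothelial cells all had positive log2 fold changes, 10 of 10 in each list, with medians of 2.21, 2.74 and 1.72. Their part in the values of these 6 lists was not tested.

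Among 14 other receptors and co-receptors of the ligands, Itgb1 was called higher and 13 did not pass. Itgb1, the beta-1 integrin chain that pairs with alpha-4 and alpha-6 in midkine receptors, was at 331, 571, 413 and 289 CPM in Dclk1+ libraries 1 to 4, against 151, 180, 125 and 88.7 CPM in Dclk1- libraries 5 to 8. The lowest Dclk1+ library was above the highest Dclk1- library, and the log2 fold change was 1.56 ± 0.36 (SE, with an edgeR adjusted p = 0.0492). Those partner chains had log2 fold changes of -1.72 ± 0.86 for Itga4 and -0.13 ± 0.69 for Itga6 (by edgeR, adjusted p = 0.199 and 0.916). Lrp1, an endocytic receptor that binds midkine, had a log2 fold change of 2.45 ± 0.68 without overlap of the groups (by edgeR, adjusted p = 0.0595). The receptor kinase genes Alk and Ltk and the proteoglycan Cspg5 were too low to test. Nucleolin (Ncl), which binds both ligands, had a log2 fold change of -0.50 ± 0.40 (by edgeR, adjusted p = 0.410), and Ptprg, the closest relative of Ptprz1, one of 2.33 ± 0.88 (by edgeR, adjusted p = 0.109). The genes named beyond Itgb1 were chosen after their values were seen.

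The list of other cell surface and pericellular proteoglycans had the highest list median, 2.29. It also holds Lyve1, a hyaluronan receptor gene, and Cspg4, which is among the pericyte markers too. Their log2 fold changes were 3.72 ± 1.18 and 3.74 ± 1.10 (by edgeR, adjusted p = 0.0747 and 0.0657). Of 13 tested, 12 had a positive log2 fold change, 1 was called and 6 were higher without overlap. The called gene was Gpc4, which encodes a glypican, a lipid-anchored heparan sulfate proteoglycan. Gpc4 was at 42.8, 27.2, 34.2 and 8 CPM in Dclk1+ libraries 1 to 4, against 2.2, 2.67, 0.579 and 2.84 CPM in Dclk1- libraries 5 to 8, a log2 fold change of 3.74 ± 0.66 (SE, with an edgeR adjusted p = 0.0466). As with Ptn, the lowest Dclk1+ value was that of library 4 and it stood above every Dclk1- library. Gpc6 and Gpc3 had log2 fold changes of 3.30 ± 0.84 and 2.24 ± 0.84 and Gpc1 one of 0.31 ± 0.65, none of them called (by edgeR, adjusted p = 0.0533, 0.107 and 0.768). Gpc6 was at 244, 921, 271 and 99.2 CPM in Dclk1+ libraries, against 22.3, 59.2, 66.8 and 7.85 CPM in Dclk1- libraries. Gpc6, Gpc3 and the matrix proteoglycans Vcan and Hspg2 had the order of the fibroblast and stellate marker sum in the Dclk1+ libraries, and library 7 as their highest Dclk1- library, as that sum did. Gpc4 had neither, being lowest in Dclk1- library 7. Among others without the marker order in Dclk1+ libraries 1 to 4 were Tgfbr3 (539, 1100, 352 and 129 CPM) and Thbd (553, 961, 378 and 204 CPM). Genes named here beyond Gpc4 were chosen after their values were seen, and the part of fibroblasts and stellate cells in any of them was not tested.

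Genes that build and edit heparan sulfate held no call among 21 tested, over which the median log2 fold change was 0.53. Of the 21, 8 had an unadjusted p under 0.05 by edgeR, where 31.9% of all genes tested did, so nothing is read from that count. The most abundant were Sulf2 and Sulf1, which encode the extracellular sulfatases that trim heparan sulfate chains. Sulf2 was at 216, 685, 280 and 294 CPM in Dclk1+ libraries 1 to 4, against 36.1, 64.8, 179 and 35.7 CPM in Dclk1- libraries 5 to 8, so that the groups did not overlap (log2 fold change 2.22 ± 0.62, with an edgeR adjusted p = 0.0613). Sulf1 was at 239, 524, 163 and 58.8 CPM in Dclk1+ libraries, against 14.5, 39.7, 72.4 and 11.9 CPM in Dclk1- libraries, with overlap at Dclk1+ library 4 (log2 fold change 2.83 ± 0.78, with an edgeR adjusted p = 0.0589). In both groups the library with the most Sdc2 also had the most Sulf1 and Sulf2. At the first step of chain synthesis Xylt1 and Xylt2, the xylosyltransferases that prime both kinds of chain, had lower values without overlap, with log2 fold changes of -1.47 ± 0.40 and -0.68 ± 0.37 (by edgeR, adjusted p = 0.0569 and 0.235). Ext1, a subunit of the heparan sulfate polymerase, had higher values without overlap (log2 fold change 1.66 ± 0.44, with an edgeR adjusted p = 0.0544). The xylosyltransferases and Ext1 were named after their values were seen.

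Chondroitin and dermatan sulfate synthesis held no call among 14 genes tested, with a median log2 fold change of 0.97. Of the 14, 5 had an unadjusted p under 0.05 by edgeR, again beside 31.9% of all genes tested. Its most abundant genes had negative log2 fold changes. Chst3, a sulfotransferase that acts on the 6-position of chondroitin, was at 24, 4.08, 5.29 and 72.4 CPM in Dclk1+ libraries 1 to 4, against 280, 209, 268 and 399 CPM in Dclk1- libraries 5 to 8. The groups were far apart, and the log2 fold change was -3.45 ± 0.87 (by edgeR, adjusted p = 0.0526). Chsy1, a chondroitin polymerase, was at 33.5 to 84.5 CPM in the Dclk1+ and 87.7 to 141 CPM in the Dclk1- libraries (log2 fold change -0.91 ± 0.34 with an edgeR adjusted p = 0.108). B and T lymphocyte markers had the same direction. The 10 B cell markers summed to 42.9 to 648 CPM in the Dclk1+ and 2720 to 3490 CPM in the Dclk1- libraries, with 3 called lower, and the 10 T cell markers to 19.7 to 629 CPM in the Dclk1+ and 911 to 3480 CPM in the Dclk1- libraries, with 1 called lower. Over all genes tested 1.02% were called lower. The part of lymphocytes in the Chst3 and Chsy1 values was not tested.

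Of 14 partners of the syndecan tails and sheddases, 2 were called higher. Mmp14, a membrane-bound metalloproteinase that can cleave syndecan-1 from the cell surface, was at 117, 188, 89.9 and 42.7 CPM in Dclk1+ libraries 1 to 4, against 11.9, 18.8, 32.3 and 13.4 CPM in Dclk1- libraries 5 to 8 (log2 fold change 2.52 ± 0.51, with an edgeR adjusted p = 0.0469). Synpo, which encodes the actin-associated protein synaptopodin and stands in the list as a link to the cytoskeleton rather than a binder of the tails, was at 126, 38.6, 90.4 and 35.6 CPM in Dclk1+ libraries, against 12.8, 21, 20.5 and 8.68 CPM in Dclk1- libraries (log2 fold change 2.20 ± 0.51, with an edgeR adjusted p = 0.0492). Neither gene overlapped between groups. The sheddases Adam10 and Adam17 had log2 fold changes of 0.00 ± 0.31 and 0.37 ± 0.34, and syntenin (Sdcbp), which binds the end of every syndecan tail, one of 0.65 ± 0.31 (by edgeR, adjusted p = 0.999, 0.482 and 0.179). Cask, which binds the end of syndecan tails, and the sheddase Adamts1 had higher values without overlap, with log2 fold changes of 2.31 ± 0.55 and 3.38 ± 0.96 (by edgeR, adjusted p = 0.0503 and 0.0623). Ezr, which encodes ezrin, a linker of membrane proteins to actin, had lower values without overlap, at 31.0 to 137 CPM in Dclk1+ and 239 to 561 CPM in Dclk1- libraries (log2 fold change -2.11 ± 0.57, with an edgeR adjusted p = 0.0566), the direction of the lymphocyte markers, whose part was not tested. The uncalled genes of this list were named after their values were seen.

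Of 13 other ligands and substrates of Ptprz1, Il34 was called higher and 12 did not pass. Il34, a cytokine that binds the macrophage receptor Csf1r as well as Ptprz1, was at 9.1, 19.7, 8.82 and 3.11 CPM in Dclk1+ libraries 1 to 4, against 1.18, 1.58, 1.55 and 0.501 CPM in Dclk1- libraries 5 to 8 (log2 fold change 3.07 ± 0.70, with an edgeR adjusted p = 0.0492). Tenascin-C (Tnc), a matrix ligand, had a log2 fold change of 3.41 ± 0.97 without overlap (by edgeR, adjusted p = 0.0623), while contactin-1 (Cntn1) had one of 0.44 ± 1.47 (by edgeR, adjusted p = 0.858). The list median was 1.62.

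**Figure D4:**
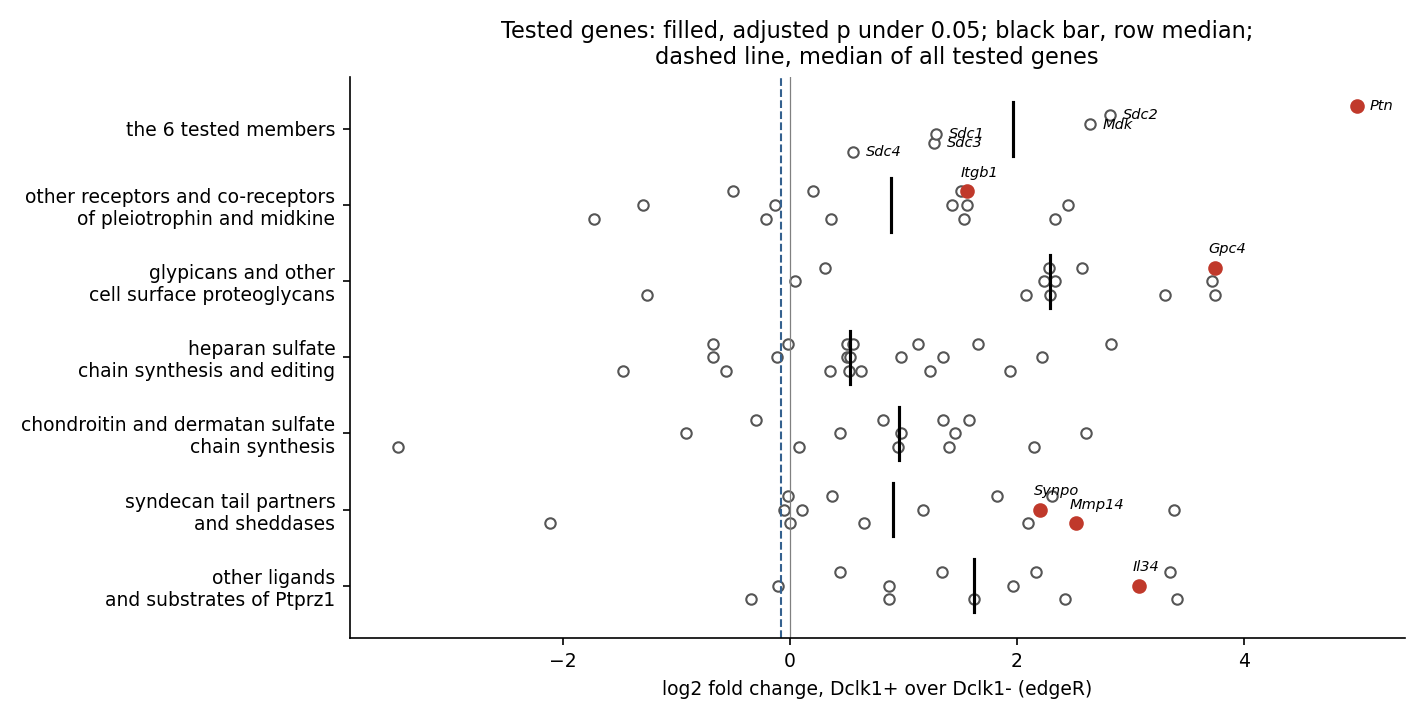
Log2 fold change (edgeR, Dclk1+ over Dclk1-) of the 6 members tested and of the tested genes of the 6 lists, 1 point per gene, with filled points at an adjusted p under 0.05, a black bar at the median of each row and a dashed line at the median of all tested genes (-0.08). Ptn lies farthest right at 4.99, the proteoglycan list has a median of 2.29, and Chst3 lies farthest left at -3.45.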

How the data were processed

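Raw read counts per gene symbol were deposited, with 1 column per library and no normalization by the authors. The submitters' processing notes name bcl2fastq 1.8.4, HTSeq 0.6.1 and the build mm9. They list Bowtie 0.12.7 with TopHat for 7 libraries, and Bowtie2 2.0.0 with TopHat2 2.0.4 for Dclk1- library 5. Which annotation was counted, and whether strand was used, is not given in the sources used here. Amplification was by the Ovation RNA-Seq System V2 kit, per the labels' protocols, which counting intervals do not cover.

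Columns were assigned to samples by the number in the title. filterByExpr (minimum count 10, minimum total 15) chose the genes to test, TMM scaled the libraries, and edgeR 4.0.16 in R 4.3.3 tested them by its quasi-likelihood F test in a model of the group (residual degrees of freedom 6), with Benjamini-Hochberg adjustment over all 13274 genes. Standard errors came from the F statistic. Levels per kb used exon lengths of GENCODE M21 (GRCm38), a later build than that of the files, so they are approximate. The edgeR step was also run on simulated data, the outcome of which is not given here, and no result rests on it. Alternatives were DESeq2 1.42.0, limma-voom (limma 3.58.1), other scalings and filters, and leaving out each library. The members and lists were chosen with earlier results of these data known. Named were the members, the called genes of each list (where none was called, the 2 most abundant) and, by correlation of log2 CPM (prior count 2), the 5 genes most like Ptn and the 3 most like each other member. Further genes were chosen after their values were seen.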

Additional observations from a re-analysis of the deposited data

Results flagged for a closer look

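A single library stood far from the other 3 of its group for 2 values. Sdc1 was at 9.35 CPM in Dclk1- library 8, with the nearest Dclk1- library at 4.41 CPM, and Sulf2 was at 685 CPM in Dclk1+ library 2, with the nearest Dclk1+ library at 294 CPM. The gap was 0.870 of the group's range for Sdc1 and 0.834 for Sulf2, judged by Dixon's test at the 95% level. In all, 40 groups of 4 libraries were looked at, of which chance flags about 1 in 20.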

How the results depend on the processing

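No paired analysis was run. The column headers number the libraries of both groups in the same way, beside the numbers in the titles. The labels do not say whether equal header numbers mark pairs. The log2 fold changes of the 6 members tested kept their sign under every alternative run and moved by less than the spread of the libraries. Without 1 library they ranged from 4.83 to 5.48 for Ptn, 1.81 to 3.46 for Mdk, 0.71 to 1.66 for Sdc1, 2.0 to 3.41 for Sdc2, 0.30 to 1.64 for Sdc3 and 0.36 to 1.01 for Sdc4. The number of genes called was 463 and depended on the setting, as did the counts in the lists. It was 858 with DESeq2's size factors, 1057 without a filter on low counts, 306 with a stricter filter, 3422 with DESeq2, 882 with limma-voom (407 higher and 475 lower, against 328 and 135) and 0 to 2481 without 1 library, with 0 for every library but Dclk1+ library 4 (where edgeR gave an unadjusted p under 0.05 for 3092 to 4005 genes). Without 1 library the lists held 0 to 5 calls for receptors, 0 to 9 for proteoglycans, 0 to 7 for heparan sulfate, 0 to 2 for chondroitin sulfate, 0 to 5 for syndecan partners and 0 to 6 for Ptprz1 partners. With DESeq2 they held 7, 10, 8, 3, 6 and 7 calls in that order. With limma-voom receptors had 3, heparan sulfate 2, chondroitin sulfate 1, syndecan partners 4 (without Synpo) and Ptprz1 partners 0 calls, and the 1 proteoglycan was Gpc6 in place of Gpc4. With DESeq2's size factors receptors, proteoglycans and heparan sulfate had 2 calls each and chondroitin sulfate 1. Without a filter receptors and proteoglycans had 2 each, heparan sulfate 3, chondroitin sulfate 1 and syndecan partners 5. With the stricter filter receptors and Ptprz1 partners had 0 and syndecan partners 1. With Rn45s left out of the library sizes receptors had 2 and heparan sulfate 1. The cause of these shifts was not tested. On raw counts in place of counts per length the Dclk1- shares were 21.0% for Sdc3 and 55.9% for Sdc4. The depth limits Ptprz1, and Mdk and Ptn in Dclk1- libraries.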
